A study of Mus musculus with 15 samples.

Results

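The genes described here encode the subunits, activators, inhibitor and assembly chaperones of the proteasome, and their ribosome-protected reads were followed in mouse liver through a circadian day. Members were chosen by symbol, as genes named Psma to Psmg followed by a number, with 1 transcript per gene, the transcript with most reads. The pattern matched 50 of 20097 genes, with 55 of 28167 transcripts. Of these, 47 are proteasome genes by list, and 45 of the 47 had a mean of at least 10 reads in the coding sequence (CDS) per library. Psma8 and Psmb11, which belong to core particles of testis and thymus, were below that minimum. The other matches were Psme2b, a Psme2-like gene with 4 CDS reads in all libraries together, and Psmc3ip and Psme3ip1, which are not proteasome genes and were kept out of every group. Psmc1 was not analysed here.

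The livers came from wild-type male C57BL/6N mice aged 8 to 10 weeks. All mice were kept in cycles of 12 h of light for 2 weeks and then in constant darkness for 24 h before the first collection. Livers were taken at circadian time (CT) 0, 4, 8, 12, 16, 20 and 24, from 2 mice at each time, which gave 14 libraries. No group carried an allele or a treatment, and whole liver was used, so that fewer cells of a type and fewer footprints per cell cannot be told apart. Per library, 40593197 to 90458783 reads were counted on transcripts. Transcripts of the major urinary proteins took 34.2% to 57.6% of them, and the 50 matched genes took 0.0921% to 0.183% of the CDS reads. All counts of CT16 replicate 2 were even numbers. The series lists another sample of this replicate, for which no separate counts were available. All 8 hepatocyte markers were read in every library, with summed densities of 27697 to 37273 RPKM over the CDS, scaled as described below. Pancreatic acinar markers were far higher in CT20 replicate 2, with a sum of 3829, and the highest time mean outside CT20 was 37.7. Clock genes followed the time labels, with Nr1d1 highest at CT8 and Arntl (Bmal1) highest at CT0.

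The 26S proteasome degrades proteins marked with ubiquitin. Its 20S core is a barrel in which rings of alpha subunits form the gate and rings of beta subunits hold the active sites, and every ring has each of its subunits once. The 19S cap has a base, with the ATPases that unfold the substrate, and a lid, with the enzyme that removes ubiquitin. In cells exposed to interferon, the catalytic beta subunits can be replaced by immunoproteasome counterparts, which alter the peptides made for antigen presentation.

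The catalytic pairs are shown first because reads of similar genes could be confused. Psmb5 (chymotrypsin-like), Psmb6 (caspase-like) and Psmb7 (trypsin-like) are the constitutive subunits, replaced by Psmb8, Psmb9 and Psmb10. The 30 coding bases around the start of the mature protein are printed from the coding strand of GRCm38.p6, with the codon of the active-site threonine in capitals.
Psmb5: ggaACCaccaccctggccttcaagtttctc
Psmb8: ggcACAaccacactcgccttcaagttccag
Psmb6: gggACCacgatcatggctgtgcagtttaat
Psmb9: gggACAaccatcatggcagtggagtttgac
Psmb7: ggcACTaccatcgcgggggtggtgtataag
Psmb10: gggACTaccatcgcggggcttgtgttccga
Within this window Psmb5 and Psmb8 shared 23 of 30 bases, Psmb6 and Psmb9 shared 24, and Psmb7 and Psmb10 shared 22. Psmb8 lies at chr17:34198195-34201454 on the plus strand and Psmb9 at chr17:34182099-34187330 on the minus strand. No stretch of 29 bases inside a coding exon of Psmb8, Psmb9 or Psmb10 occurred anywhere else in the genome.

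Ribosome density over the CDS was not even among the proteasome genes. Density is the number of CDS reads per kilobase, and each gene was set against the median of the 14 core genes in the same library, so that no scaling between libraries enters. The 14 core genes differed from each other with an SD of 0.67 ± 0.06 on the log2 scale (mean ± SD, n = 14 libraries). Base genes had a median density of 0.463 of the core median, a log2 ratio of -1.11 ± 0.09 (SD, n = 14). Lid genes had 0.414 of the core median, a log2 ratio of -1.27 ± 0.11 (SD, n = 14). All 8 base genes and all 8 lid genes lay below the core median in every one of the 14 libraries. The subunits Adrm1 and Sem1, which the symbol pattern does not match, are not among them, and Sem1 was not as low, as described with the partner genes. The mean density of Sem1, scaled as described below, was 58.3, between the core genes Psmb5, at 60.6, and Psma2, at 55.1. The statement on the lid thus covers only genes that the pattern matched. These ratios are descriptions, with no test.

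**Figure D1:**
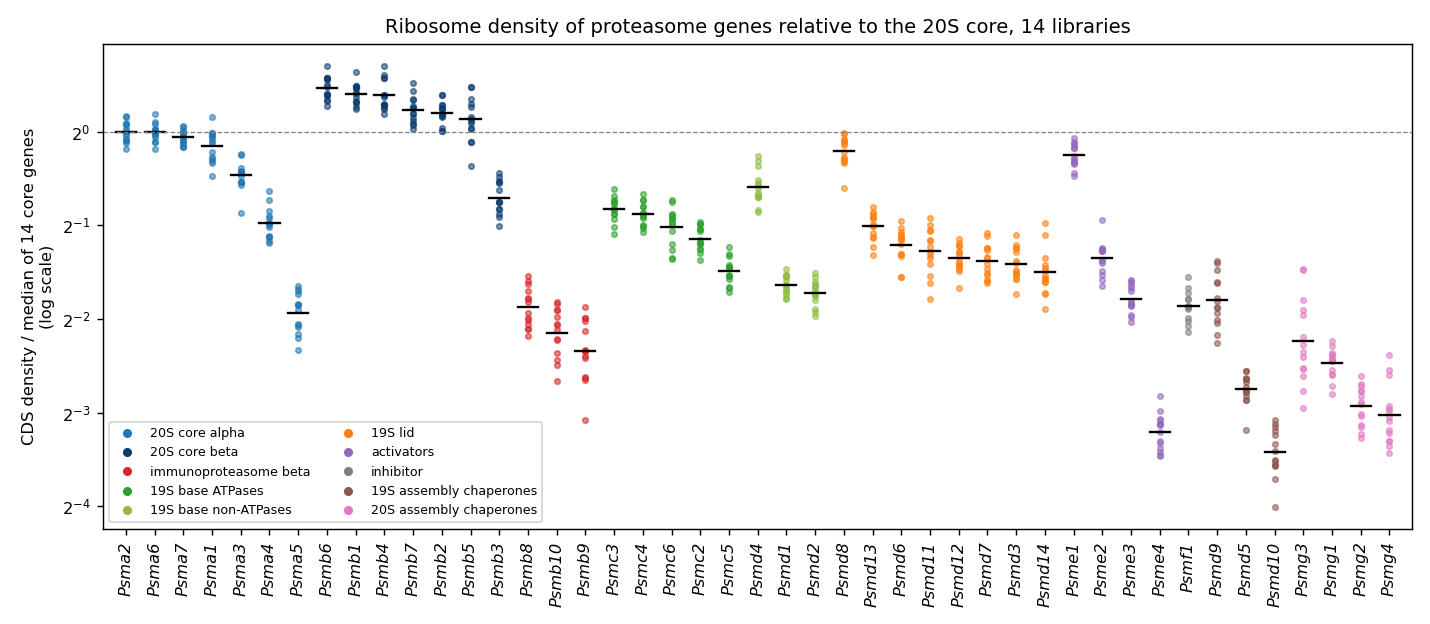
CDS density of each of the 45 tested proteasome genes divided by the median of the 14 core genes in the same library, on a log axis. Points are the 14 libraries and bars are geometric means. Psmb6 is highest at a ratio of 1.38, and Psmd10 is lowest at 0.0930.

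Among the core genes, Psmb6 had the highest density per CDS length, with a log2 ratio to the core median of 0.46 ± 0.12 (SD, n = 14). Psmb1, at 0.40 ± 0.11, and Psmb4, at 0.39 ± 0.16, are structural beta subunits, each within 1 SD of its neighbour in the order. Psmb7, Psmb2, Psmb5, Psma2, Psma6, Psma7 and Psma1 followed, with no gap between neighbours beyond 1 SD. Psma3, at -0.47 ± 0.15, Psmb3, at -0.71 ± 0.18, and Psma4, at -0.98 ± 0.16, lay below the core median in all 14 libraries. Psma5, an alpha ring subunit, had the lowest density of the core at -1.94 ± 0.21, and lay below Psma4 in 14 of 14 libraries. The highest and the lowest core gene were 5.27-fold apart. Within the beta ring the range was 2.24-fold, from Psmb6 to Psmb3, and within the alpha ring 3.82-fold, from Psma2 to Psma5.

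Several core genes have close copies elsewhere in the genome. Each 29-base stretch of the CDS, about the length of a footprint, was searched in GRCm38.p6 and its places were counted. In Psma5, at chr3:108256926-108279952 on the plus strand, 61.3% of the stretches lay inside an exon and also occurred elsewhere. A further 32.1% crossed an exon junction, and 6.59% lay inside an exon and had a single place in the genome. Of the 224 stretches across a junction, 201 also occurred elsewhere in the genome. The single-place share was 6.62% in Psma3, 14.6% in Psmb3, 20.7% in Psmb5 and 29.7% in Psma4, against 80.1% in Psmb4 and 75.4% in Psmb2. The methods name alignment to the genome and exact matches, and name reads with a unique place for the profiles. How reads with several places entered the counts is not given in the sources used here.

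The spread among core genes depended on how these stretches were counted. The SD among the 7 beta genes was 0.41 ± 0.05 per CDS length (log2, mean ± SD, n = 14 libraries), and rose to 0.68 ± 0.07 when only single-place stretches formed the denominator. It fell to 0.17 ± 0.03, a range of 1.27-fold, when each stretch inside an exon was weighted by 1 over its number of places. This denominator was chosen after the densities had been seen. With weighted stretches Psmb3 moved to a log2 ratio of 0.06 ± 0.08 and Psmb5 to 0.26 ± 0.17, and with single-place stretches they lay at 1.04 ± 0.16 and 1.35 ± 0.23. The alpha ring kept a range of 2.96-fold with weighted stretches, with Psma5 lowest at -0.96 ± 0.22 and Psma3 highest at 0.61 ± 0.16. With single-place stretches Psma5 was no longer low, at 0.95 ± 0.20 and above the core median in 14 of 14 libraries, and Psma3 stood at 2.41 ± 0.13. The SD among the 14 core genes was then 0.92 ± 0.05. The place of Psma5 in the order thus turned with the denominator, and Psma3 rather than Psmb6 was highest of the core with weighted and with single-place stretches. All 8 lid and all 8 base genes stayed below the core median in every library under each of them, at median log2 ratios of -1.57 ± 0.13 and -1.34 ± 0.10 with weighted stretches and of -1.87 ± 0.13 and -1.60 ± 0.09 with single-place stretches.

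**Figure D2:**
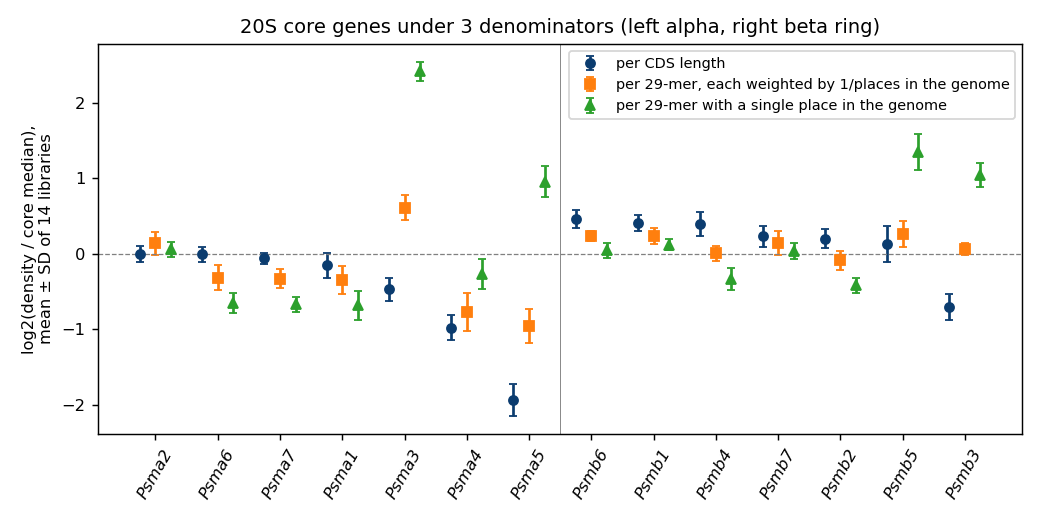
Log2 ratio of each core gene to the core median, mean ± SD of 14 libraries, with CDS length (circles), weighted 29-base stretches (squares) or single-place stretches (triangles) as the denominator. The SD of the 7 beta genes is 0.17 with weighted and 0.68 with single-place stretches, and Psma5 moves from -1.94 per CDS length to 0.95 with single-place stretches.

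In the base, Psmd4, the ubiquitin receptor, had the highest density, at 0.663 of the core median, and lay above Psmc3, the next, in 12 of 14 libraries. The scaffold subunits Psmd1 and Psmd2 were lowest, at 0.322 and 0.303 of the core median, and differed from each other by less than 1 SD. The ATPases lay between, from Psmc3 at 0.564 through Psmc4 at 0.545, Psmc6 at 0.494 and Psmc2 at 0.453 to Psmc5 at 0.356. The lower part of this order depended on the denominator. With weighted stretches Psmd2 lay above Psmc5 in 11 of 14 libraries, and with single-place stretches Psmd2, at a log2 ratio of -1.54 ± 0.14, lay above Psmc2, Psmc4 and Psmc5, with Psmd1 lowest at -2.35 ± 0.15. Psmd4 was highest under each of them. Psmc2 has a CDS length of 1440 nt in the files and 1302 nt in the annotation, and the longer value was used.

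Among the symbol-matched lid genes, Psmd8 stood apart at 0.864 of the core median and exceeded Psmd13, the next, by 0.80 ± 0.20 (log2, SD, n = 14), in 14 of 14 libraries. The other 7 lid genes lay between 0.496 for Psmd13 and 0.353 for Psmd14, and from Psmd6 down neighbours did not differ beyond 1 SD. Psmd14, the lid deubiquitinase, was thus lowest per CDS length, and with weighted stretches Psmd3 was lowest. Psmd8 was highest under both denominators, but with single-place stretches Psmd11, at a log2 ratio of -0.78 ± 0.26, lay above Psmd8, at -0.96 ± 0.15.

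Activators, inhibitor and assembly chaperones had a median density of 0.189 of the core median, a log2 ratio of -2.40 ± 0.19 (SD, n = 14), and of 0.112 with single-place stretches. Psme1, at 0.838, encodes PA28 alpha, and Psme2, at 0.392, encodes its partner PA28 beta. Psme1 exceeded Psme2 by 1.10 ± 0.17 on the log2 scale per CDS length and by 0.49 ± 0.17 with weighted stretches, but with single-place stretches, 10.5% of those of Psme2, the sign turned to -0.95 ± 0.17. Psme3, the nuclear PA28 gamma, had 0.290 of the core median. Psme4, which encodes PA200, had 0.108. The inhibitor Psmf1 had 0.275. Chaperones of the cap ranged from 0.287 for Psmd9 to 0.0930 for Psmd10 (gankyrin), with Psmd5 at 0.149. Chaperones of the core ranged from 0.213 for Psmg3 to 0.123 for Psmg4, with Psmg1 at 0.180 and Psmg2 at 0.131.

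Reads before the start codon were few in most members. The median of 5′UTR reads per nt over CDS reads per nt was 0.136 among the 45 genes, and in 2 genes it was above 1. Psma4 had 3251 reads in a 5′UTR of 70 nt, 2.11 times its CDS reads per nt, and Psmd12 had 1.17 times. In Psma7, 35.05% of the reads lay in a 941-nt 5′UTR that includes CDS of the other transcript of the gene.

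Levels across the day were compared next, to ask whether synthesis of the proteasome has a 24-h rhythm. Levels are RPKM over the CDS, the density divided by the library size after TMM scaling (trimmed mean of M-values), and rhythms were tested in edgeR with cosine and sine terms and Benjamini-Hochberg adjustment over all transcripts tested. None of the 45 proteasome genes passed the threshold of 0.05, whereas 1833 of 17023 transcripts (10.8%) did. At an unadjusted p below 0.05 there were 6 of 45, and 4057 of 17023 (23.8%) over all transcripts. With total-count scaling 0 members and 8.29% of all transcripts passed, and with 1 transcript per gene 0 members and 10.4%. The DESeq2 likelihood ratio test called 1 member (15.5% of the transcripts given an adjusted p), Psma2, with an adjusted p of 0.0470. JTK_CYCLE on TMM-scaled densities with Benjamini-Hochberg adjustment called 0 members, and 3.54% of all transcripts. With total counts and p adjusted only within each transcript, JTK_CYCLE called 11 of the 45, and 21.9% of all transcripts.

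The peak-to-trough difference of the fitted cosine had a median of 0.20 over the 45 genes (log2), and of 0.46 over all transcripts tested, many of which had fewer reads. For the 11510 transcripts averaging 100 CDS reads or more, among which all 45 genes fell, the median was 0.37. This cut did not match depth, as the members averaged from 142 (Psmg4) to 3191 (Psmb4) CDS reads. No proteasome gene reached a difference of 1, which 18.2% of all transcripts and 7.84% of those averaging 100 reads or more did. The coefficient of variation over the 14 libraries ran from 5.13% to 29.7% with a median of 10.9%. The highest time mean exceeded the lowest by 1.12-fold to 1.90-fold. The median absolute log2 difference between the 2 mice of a time was 0.16, and the median range of the 7 time means was 0.35. These are unlike measures, since a range over 7 values is wider than a difference of 2 values at the same spread. Of the members' fitted peaks, none of which belonged to a fit that passed, 32 fell in CT0 to CT12 and 13 in CT12 to CT24, against 8690 and 8333 over all transcripts.

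Psma5 had the lowest adjusted p of all members, 0.118 in edgeR with Benjamini-Hochberg adjustment. Its density was 13.8 and 15.7 at CT0, 17.3 and 17.0 at CT4, 17.7 and 12.6 at CT8, 17.2 and 12.9 at CT12, 12.5 and 11.7 at CT16, 12.3 and 12.2 at CT20, and 15.8 and 14.2 at CT24. The values at CT16 and CT20 were the lowest, and the mice at CT8 and CT12 differed by more than most times did. The fitted peak was at CT5.53 ± 0.97 h (SE), with a peak-to-trough difference of 0.48 ± 0.13 (log2, SE).

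Psma2, another alpha subunit, had 45.7 and 49.4 at CT0, 59.1 and 59.8 at CT4, 61.8 and 61.2 at CT8, 63.2 and 56.9 at CT12, 53.3 and 52.0 at CT16, 52.2 and 53.5 at CT20, and 52.6 and 50.0 at CT24. All 6 values from CT4 to CT12 lay above the 8 others, with a peak-to-trough difference of 0.33 ± 0.06. The edgeR adjusted p (Benjamini-Hochberg) was 0.134.

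Psmd7, a structural lid subunit, was highest at CT0, with 23.0 and 23.8, and lowest at CT12, with 18.4 and 20.1. Its peak-to-trough difference was 0.29 ± 0.06, and its edgeR adjusted p (Benjamini-Hochberg) was 0.189. Psmd14 also had its highest time mean at CT0, with 25.3 and 23.5, and its lowest at CT12, with 18.5 and 14.4, and did not pass, at an adjusted p of 0.267 in edgeR. Psmg3 had the widest spread of all members, from 7.53 to 19.1, with mice of 11.004 and 19.1 at CT24 alone.

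**Figure D3:**
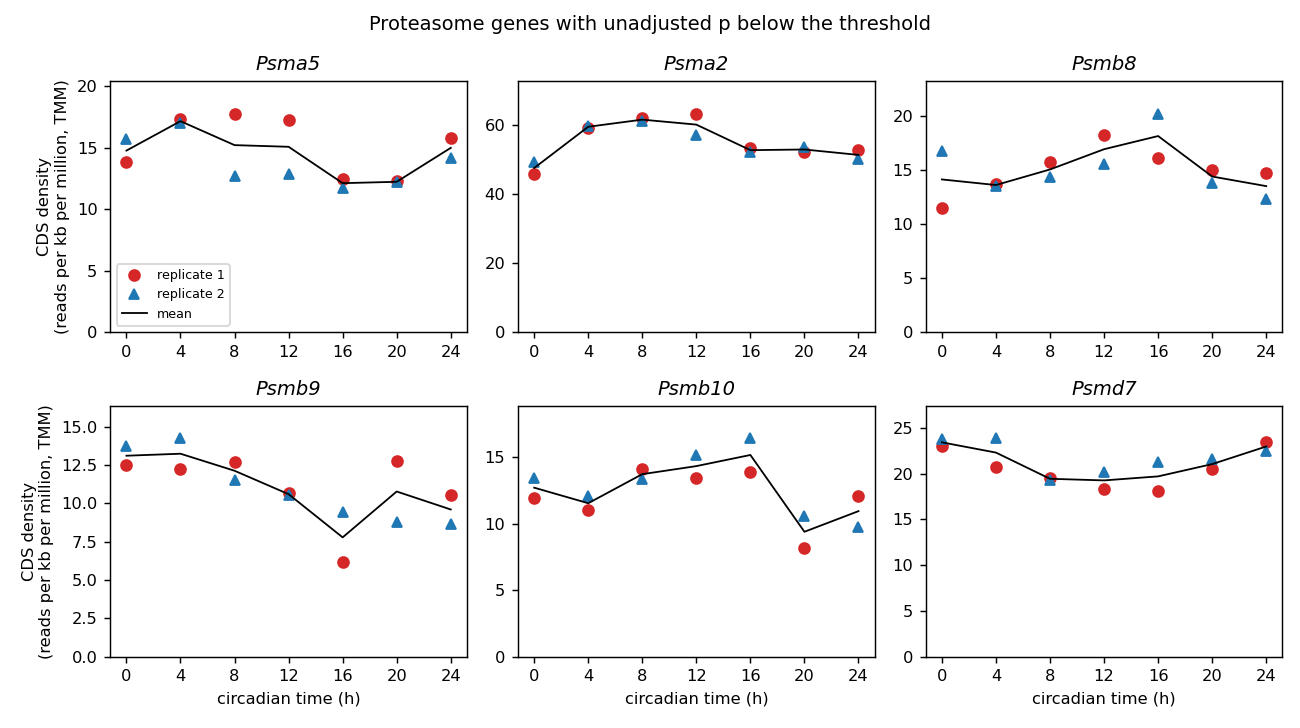
CDS density after TMM scaling against circadian time for the 6 members with an unadjusted p below 0.05. Points are single libraries, replicates 1 and 2 being different mice at each time, and lines join the means. Psma5 falls to 12.5 and 11.7 at CT16, and Psmb9 to 6.16 in a single library there.

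The immunoproteasome genes were read in every library, well below their constitutive counterparts. Psmb8 had a mean density of 15.1 ± 2.28 against 60.6 ± 8.11 for Psmb5 (SD, n = 14), a log2 ratio of -2.01 ± 0.30. Psmb9 had 11.03 ± 2.23 against 75.8 ± 5.87 for Psmb6, a log2 ratio of -2.81 ± 0.34. Psmb10 had 12.6 ± 2.19 against 64.8 ± 6.15 for Psmb7, a log2 ratio of -2.38 ± 0.19. Each counterpart was thus 4.02-fold, 6.99-fold and 5.21-fold higher, and in every library. With weighted stretches the 3 ratios were -2.57, -2.91 and -2.59. With single-place stretches they were -3.997, -3.06 and -2.82, so that the distance of Psmb8 from Psmb5, much of whose CDS has copies, was 15.97-fold.

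All 3 immunoproteasome genes had an unadjusted p below 0.05, as did 23.8% of all transcripts, and none passed after adjustment. Psmb9 was highest at CT4, with 12.2 and 14.2, and lowest at CT16, with 6.16 and 9.41. Its peak fell at CT4.44 ± 1.22 h (SE), with a peak-to-trough difference of 0.58 ± 0.21 and an edgeR adjusted p (Benjamini-Hochberg) of 0.157. Psmb8 was highest at CT16, with 16.1 and 20.2, and its mice at CT0 had 11.5 and 16.7. Its peak fell at CT14.1 ± 1.26 h, with a difference of 0.40 ± 0.12 and an edgeR adjusted p of 0.149. Psmb10 was highest at CT16, with 13.9 and 16.4, and lowest at CT20, with 8.20 and 10.6, and had an edgeR adjusted p of 0.185. Both mice at CT20 were thus below both at CT16 in Psmb10. The difference between the peaks was not tested.

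The ratios to the constitutive genes do not depend on scaling, but they move with either gene of a pair, and their highest means fell at other times than those of the densities for Psmb8 and Psmb9. Psmb8 over Psmb5 had its highest mean at CT12, -1.56 (log2), through values of -1.25 and -1.87, and its lowest at CT0, through -2.58 and -2.06. Psmb9 over Psmb6 had its highest mean at CT0, -2.51, and was lowest at CT16, with -3.79 and -3.13, below all 12 other libraries. Psmb10 over Psmb7 was lowest at CT20, with -2.75 and -2.71, again below all 12 others.

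**Figure D4:**
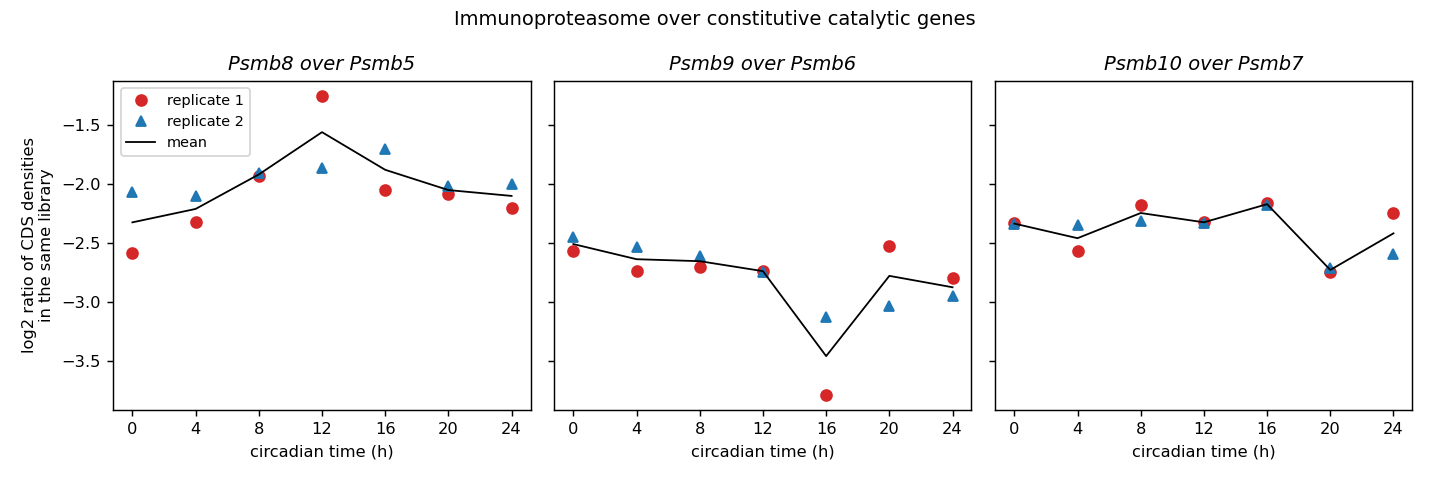
Log2 ratio of the CDS density of each immunoproteasome gene to the constitutive gene it replaces, in the same library, against circadian time. Points are libraries and lines join means. The ratio of Psmb9 to Psmb6 is lowest at CT16, at -3.79 and -3.13, and that of Psmb10 to Psmb7 at CT20.

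Markers of the cells and signals that raise immunoproteasome genes were examined beside them. Of 10 interferon and antigen presentation genes, 1 passed the threshold in edgeR, against 10.8% of all transcripts. The summed density of this list ran from 2690 to 3913 over libraries and from 2932 at CT12 to 3419 at CT20 over time means. Of 8 Kupffer cell and macrophage markers, 0 passed in edgeR and 1 had an unadjusted p below 0.05, against 23.8% of all transcripts at that level, and their summed density ran from 75.7 to 129 over libraries and from 86.7 at CT16 to 118 at CT0 over time means. Of 8 endothelial and stellate cell markers, 0 passed the cosine test in edgeR and 2 had an unadjusted p below 0.05, and their summed density ran from 83.7 to 129 over libraries and from 90.9 at CT16 to 124 at CT0 over time means. Col1a1 of this list passed in edgeR among the 7 times, with an adjusted p (Benjamini-Hochberg) of 0.0223, and was lowest at CT16, with 0.905 and 1.17. The sum of the endothelial and stellate markers thus had its lowest mean at CT16, as Psmb9 did, whereas Psmb8 and Psmb10 had their highest means there. The sum of the macrophage markers was low at CT16 and, at 87.7, at CT20, where Psmb10 was lowest. Of these 8 markers, Cd5l, Vsig4, C1qa and Csf1r had their lowest means at CT20. Clec4f, Cd68 and Marco had theirs at CT16, and Adgre1 at CT12. Lymphocyte markers summed to 0.980 to 3.13, with time means from 1.13 at CT12 to 3.06 at CT8, and Cd3e had no read in 8 libraries and Cd3g in 12. The part of these cells and signals in the courses of Psmb8, Psmb9 and Psmb10 was not tested.

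No activator passed, nor did the inhibitor. Psme1 ran from 38.2 to 54.8 with a median of 45.4 over libraries, and its edgeR adjusted p (Benjamini-Hochberg) was 0.502. Psme2 ran from 17.98 to 29.2, with an adjusted p of 0.224 in edgeR. Psme3 ran from 13.6 to 19.7 with a median of 15.9, and Psmf1 from 12.1 to 18.02 with a median of 15.5. Psme4 ran from 4.62 to 7.52 with a median of 6.10, and the coefficients of variation of Psme4, 14.3%, Psme2, 12.6%, and Psme3, 10.94%, were above the members' median. Psme3, Psme4 and Psmf1 had edgeR adjusted p values (Benjamini-Hochberg) of 0.611, 0.746 and 0.366.

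The constitutive catalytic genes and the genes at the ends of the density order did not pass either. Psmb5 ran from 43.5 to 69.98 with a median of 61.9, with its highest mean at CT0 and its lowest at CT12. Psmb6 ran from 67.0 to 85.1 with a median of 73.7, and Psmb7 from 55.1 to 76.4 with a median of 64.7. The adjusted p values of Psmb5, Psmb6 and Psmb7 in edgeR with Benjamini-Hochberg adjustment were 0.549, 0.954 and 0.459. In the base, Psmd4 ran from 32.5 to 41.6 with a median of 35.95, and Psmd2 from 13.7 to 19.4 with a median of 16.8. In the lid, Psmd8 ran from 38.8 to 53.5 with a median of 47.3, and its highest time mean exceeded the lowest by 1.12-fold. Psmd10 ran from 3.66 to 6.53 with a median of 5.27, with its highest mean at CT24 and its lowest at CT16. The edgeR adjusted p values (Benjamini-Hochberg) of Psmd4, Psmd2, Psmd8 and Psmd10 were 0.264, 0.874, 0.915 and 0.303.

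As whole groups the core, base and lid moved by little after TMM scaling. The mean log2 density of the core ran from -0.07 to 0.13 around its own average over the 14 libraries, that of the base from -0.11 to 0.12, and that of the lid from -0.15 to 0.09. Fitted peak-to-trough differences were 0.10 ± 0.04 for the core, 0.10 ± 0.05 for the base and 0.11 ± 0.05 for the lid (log2, SE). Scaled by total count, the 3 groups had differences of 0.40 ± 0.20, 0.45 ± 0.18 and 0.51 ± 0.20, with peaks near CT23. The median of all transcripts tested moved the same way under that scaling, by 0.46 ± 0.19 with a peak at CT22.4, so the course of these 3 groups by total count is one that the transcripts at large share. The immunoproteasome genes had a difference of 0.24 ± 0.11 by TMM, with a peak at CT9.32, and of 0.24 ± 0.22 by total count.

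**Figure D5:**
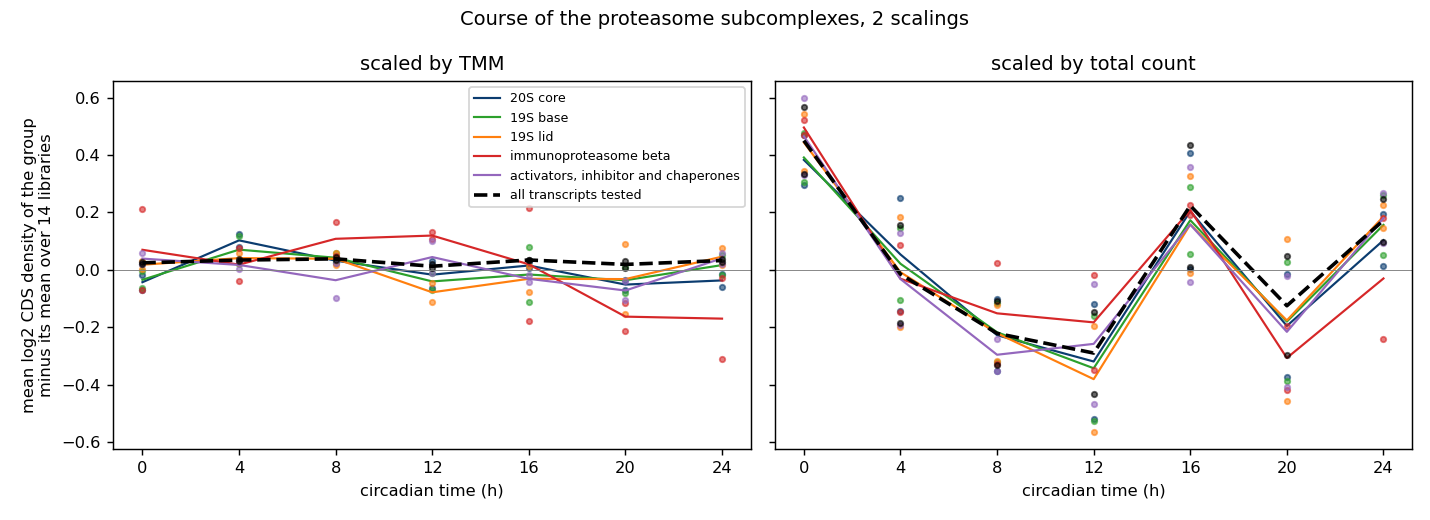
Mean log2 CDS density of each group of proteasome genes, less its average over 14 libraries, against circadian time, scaled by TMM (left) or total count (right). Points are libraries and lines join time means, and the dashed line is the median of all 17023 transcripts tested. By total count the core, base, lid and dashed line are highest at CT0 and lowest at CT12, and by TMM the core stays between -0.07 and 0.13.

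A change over time of any shape was tested with edgeR among the 7 times. None of the 45 genes passed after Benjamini-Hochberg adjustment, against 1164 of 17023 transcripts (6.84%), and 1 member, Psmb10, had an unadjusted p below 0.05, with an adjusted p of 0.206.

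Genes that work with the proteasome were read from a list of 28, which holds the subunits Adrm1 and Sem1, the maturation factor Pomp, shuttle factors, the transcription factors Nfe2l1 and Nfe2l2, and the ubiquitin genes. Of these, 1 of 28 passed in edgeR, against 10.8% of all transcripts. Rps27a, which encodes ubiquitin fused to a ribosomal protein, was lowest at CT4, with 11.4 and 9.63, and highest at CT12, with 43.4 and 24.9. Its peak fell at CT16.0 ± 1.16 h with a peak-to-trough difference of 1.23 ± 0.39, and its adjusted p was 0.0480 (edgeR, Benjamini-Hochberg), which 8 of the 14 fits that left out a library did not keep. Among the 7 times, 2 of 28 passed in edgeR with Benjamini-Hochberg adjustment, against 6.84% of all transcripts, Rps27a with an adjusted p of 0.0125 and Ubqln4, a ubiquilin, with 0.0248. Ubqln4 was lowest at CT12, with 3.01 and 4.09, and highest at CT16, with 7.63 and 6.68. Sem1, a small lid subunit, had a mean density of 58.3 ± 6.30, above the 47.6 of Psmd8, and Adrm1, a ubiquitin receptor, one of 16.3 ± 2.07 (SD, n = 14).

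Nfe2l1 is known to act on proteasome genes through the antioxidant response element, so the promoters of the members were searched for its core. The core, TGACNNNGC on either strand, was present in 6 of 42 member promoters (14.3%), of 39 member genes found, and in 12.4% of 32851 promoters of the same 300 bases. RefSeq promoters of GRCm38.p6 were used, and the sites are shown for both catalytic subunits with a match, with the match in capitals.
Psmb5, chr14:54618023-54618052, minus strand: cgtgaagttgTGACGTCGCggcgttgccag
Psmb6, chr11:70525338-70525367, plus strand: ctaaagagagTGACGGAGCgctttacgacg
A match describes the letters in this window and is not evidence of binding. The other genes with a match were Psmc6, Psmd12, Psmd9 and Psme4.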

How the data were processed

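Ribosome-protected fragments of 14 mouse livers were measured. Per the study's methods, adapters were clipped, reads of rRNA were removed, and the rest were aligned to mm10 with Bowtie2 2.1.0.0 and filtered for exact matches with SAMtools 0.1.19.0 (versions from the submitters' processing notes). The authors deposited raw read counts of the 5′UTR, CDS and 3′UTR per RefSeq transcript, with region lengths. Samples were grouped by the time in their names; the last pair is named CT24 and carries CT00 in a label field. The members and gene lists were chosen with earlier results of these data known.

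The count test was the quasi-likelihood F test of edgeR 4.0.16 (R 4.3.3), with TMM scaling, a minimum of 10 CDS counts on average and Benjamini-Hochberg adjustment. Standard errors are from least-squares cosines on log2 density with a pseudocount of 0.5 counts. DESeq2 1.42.0 and JTK_CYCLE, rewritten in Python 3.11, were alternatives. The tests were checked on simulated data. Symbols came from RefSeq and sequences from GRCm38.p6. Values over libraries are given for members that passed, the highest and lowest of the core, the base, the lid and the other genes, the catalytic and immunoproteasome genes, Psmd14, the activators and the inhibitor, and for partner genes that passed; Psma2, Psma5, Psmd7 and Psmg3 were added after their values were seen. Each tested member had at least 73 CDS counts in every library. Intervals between 2 mice rest on 2 values. Some genes of the marker lists are not reported here by name.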

Additional observations from a re-analysis of the deposited data

Results flagged for a closer look

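Psmb11, the thymus-specific beta subunit, had no CDS read in any library but 86 reads over its 3′UTR in the 14 libraries together. The signal lies in a region that the comparisons of CDS density do not use.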

How the results depend on the processing

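The count of 0 rhythmic proteasome genes held under total-count, DESeq2 size-factor and upper-quartile scaling, count minimums of 1 and 100, whole-transcript counts, 1 transcript per gene, JTK_CYCLE with TMM, without both CT24 libraries, and with the even counts of CT16 replicate 2 halved, which was added after the data had been seen. It was 1 (Psma2) by the DESeq2 likelihood ratio test and 11 by JTK_CYCLE on total counts. Leaving out each library gave 0 to 1: Psma5 passed without CT8 replicate 2 (adjusted p = 0.0313), Psmg3 without CT12 replicate 1 (0.0171) and Psmb9 without CT20 replicate 1 (0.0473), all by edgeR with Benjamini-Hochberg adjustment. Over all transcripts the count of 1833 became 603 by JTK_CYCLE with TMM and Benjamini-Hochberg adjustment, 3727 by JTK_CYCLE on total counts with p adjusted only within each transcript, and 1190 with 1 transcript per gene, where fewer were tested. The 1 partner gene became 0 with upper-quartile scaling, JTK_CYCLE with TMM and 1 transcript per gene, 2 by DESeq2 and with a count minimum of 100, and 4 by JTK_CYCLE on total counts, with 0 to 1 when a library was left out.

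The test among the 7 times called 1 member, Psmg3, and 12.6% of all transcripts with total-count scaling. The median peak-to-trough difference of the members by least squares was 0.45 by total count. In the edgeR fit with that scaling it was 0.51, and 0.65 over all transcripts.

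The sample names give same-numbered mice a shared letter, A or B, and do not say what it stands for. Of 21 pairs of times, 3 had a correlation of deviations over 0.1, with a median of 0.03 and a highest value of 0.18. With the replicate block, 0 members, 1781 transcripts and 0 partner genes were rhythmic, and 0 members differed among the 7 times.

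The core SD was 0.92 with single-place stretches, 0.44 with weighted stretches and 0.76 over whole transcripts. In the same order, the base to core ratio was -1.60, -1.34 and -1.002, and the activator and chaperone ratio -3.16, -2.82 and -2.90. The lid to core ratio was -1.87 and -1.57, and the median immunoproteasome ratio -3.10 and -2.64, with single-place and weighted stretches. The cause was not tested. Leaving out libraries, or taking the transcript with the longest CDS, moved no ratio beyond 1 SD.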
